A study of Homo sapiens with 8 samples.

Results

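Cells take up, store and export iron through a small set of proteins, and 8 genes of that set are described here in human colorectal cancer lines: TFRC, SLC11A2, FTL, FTH1, NCOA4, SLC40A1, IREB2 and ACO1. They were chosen by name, with earlier results of these data known, as the core genes of iron uptake, storage and regulation. All 8 were found among the 16829 genes of the deposited tables. RNA-seq was available for 4 groups of 2 libraries each, all cultured in DMEM with serum and treated with lentivirus, per the labels. RKO libraries came from cells with CYP1B1 overexpression and from a normal control. SW480 libraries came from cells with CYP1B1 knockdown (shCYP1B1) and from a normal control labelled shNT. CYP1B1 encodes a cytochrome P450 enzyme of steroid and xenobiotic metabolism. The labels name 1 hairpin and do not describe the construct of the RKO control, and they do not say whether the 2 libraries of a group came from separate cultures. The p-values below therefore measure the spread between these libraries, which may be technical. The fit shared that spread over all 4 groups, so RKO p-values also draw on the SW480 pairs, and SW480 p-values on the RKO pairs.

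Iron enters most cells bound to transferrin through the transferrin receptor, is moved out of endosomes by the transporter DMT1, and is stored in ferritin, a shell of heavy and light chains. The adaptor NCOA4 delivers ferritin to lysosomes for release of its iron, and ferroportin is the exporter. The iron regulatory proteins IRP1 and IRP2 bind hairpins called iron-responsive elements when iron is scarce. Binding in a 5′ UTR blocks translation of ferritin and ferroportin mRNA, and binding in the 3′ UTR protects the transferrin receptor mRNA from decay. Proliferating tumour cells, colorectal cancer included, are known for a high demand for iron.

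The iron-responsive elements of the genes described are shown because they link the uptake and the storage genes to the same pair of regulators. The motif searched was a C, any 5 bases, the loop CAGTGN and any 5 bases, read on the sense strand of protein-coding transcripts (GENCODE release 29, GRCh38), with at least 4 of the 5 base pairs between the stretches on either side of the 6-base loop, G-U pairs included. It was found in at least 1 transcript of 2200 of 19669 protein-coding genes (11.2%), so a match alone is a description and not a binding site. Matches with all 5 pairs lay in the 3′ UTR of TFRC (4 elements) and in the 5′ UTRs of FTL, FTH1 and SLC40A1. The match in the 3′ UTR of SLC11A2 had 4 pairs and was present in 5 of its 18 coding transcripts. The others were present in 3 of 4 coding transcripts of TFRC, 1 of 1 of FTL, 7 of 8 of FTH1 and 1 of 5 of SLC40A1. Each sequence is 30 bases long, 5′ to 3′ on the transcript, with the loop in capitals.
TFRC element 1 (3′ UTR, chr3:196050978-196051007, minus strand): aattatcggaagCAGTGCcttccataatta
TFRC element 2 (3′ UTR, chr3:196050574-196050603, minus strand): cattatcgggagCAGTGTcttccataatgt
TFRC element 3 (3′ UTR, chr3:196050509-196050538, minus strand): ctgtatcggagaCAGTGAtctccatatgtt
TFRC element 4 (3′ UTR, chr3:196050462-196050491, minus strand): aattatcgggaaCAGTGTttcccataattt
SLC11A2 (3′ UTR, chr12:50988268-50988297, minus strand): agccatcagagcCAGTGTgtttctatggtt
FTL (5′ UTR, chr19:48965335-48965364, plus strand): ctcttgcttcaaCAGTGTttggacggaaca
FTH1 (5′ UTR, chr11:61967573-61967602, minus strand): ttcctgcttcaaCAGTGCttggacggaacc
SLC40A1 (5′ UTR, chr2:189580660-189580689, minus strand): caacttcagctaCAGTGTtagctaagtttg

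IREB2 and ACO1 each held 1 match with 4 pairs in the 3′ UTR of 1 transcript, and these letters were not found in NCOA4. Only transcript levels were measured, so protein translated from these mRNAs is not known.

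Total counts ran from 31550173 to 34921085 per library, and 14157 genes had enough counts to be tested. CYP1B1 stood at 437 and 519 CPM (counts scaled with TMM to a common library size) in the RKO overexpression libraries and at 0.686 and 0.701 CPM in the controls. It stood at 0.367 and 0.301 CPM in the SW480 shCYP1B1 libraries and at 1.44 and 2.20 CPM in the shNT libraries. The RKO overexpression pair was the least alike of the 4 pairs: 67 of 11087 genes differed by over 2-fold between its libraries, against 9 or 10 in the other pairs. Of 7 colorectal epithelial markers, EPCAM (1.75 to 2.03 CPM of the library total), CDH1 (at most 0.242) and VIL1 (at most 0.0317) were low or near 0 in RKO, where KRT18 (178 to 192) and CDX2 (23.9 to 26.0) were present. KRT8 was 81.4 to 81.8 CPM in RKO overexpression and 47.5 to 52.9 in RKO control libraries, and KRT19 0.212 to 0.466 and 0.393 to 1.05. In SW480, the epithelial markers differed between the groups in both directions. EPCAM was 21.8 to 22.5 CPM with shCYP1B1 and 130 to 131 with shNT, VIL1 0.986 to 1.45 and 10.9 to 12, KRT19 233 to 249 and 455 to 485, and CDX2 43.2 and 78.1 to 83.9. KRT8 (2430 to 2440 with shCYP1B1, 2060 to 2120 with shNT), KRT18 (2730 to 2790 and 2320 to 2410) and CDH1 (8.62 to 9.6 and 5.93 to 6.56) were higher with shCYP1B1. Marker genes of other cell types were near 0 for leucocytes (PTPRC at most 0.262) and hepatocytes (ALB at most 0.229). The sum of 3 erythroid markers was 0.466 to 0.878 CPM in RKO overexpression and 0.254 to 0.635 in control libraries, and 2.32 to 2.36 with shCYP1B1 and 1.2 to 1.24 with shNT. HBA1 made up most of it in SW480, where HBB was at most 0.0573. The sum of 5 leucocyte and macrophage markers was 671 to 695 CPM in RKO overexpression and 715 to 787 in control libraries, nearly all from the lysosomal gene CD68. It was 23.7 to 25.5 CPM in shCYP1B1 and 8.33 to 9.72 in shNT libraries. The sum of 4 fibroblast markers was 24.4 to 26.6 CPM in shCYP1B1 and 13.3 to 17.3 in shNT libraries, led by COL1A1. The part of these markers in the results below was not tested.

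With CYP1B1 knockdown in SW480, both iron uptake genes fell, TFRC to 0.245 and SLC11A2 to 0.580 of the shNT level. The ferritin heavy chain gene FTH1 and the ferritin receptor gene NCOA4 fell by smaller amounts, and the ferritin light chain gene FTL rose slightly. With CYP1B1 overexpression in RKO, TFRC and FTL rose and NCOA4 fell. TFRC was thus higher where CYP1B1 was higher in both lines, whereas FTL rose and NCOA4 fell under both manipulations. The RKO rise of TFRC and the SW480 changes of FTL and NCOA4 did not pass when certain single libraries were left out. In bulk RNA, fewer cells with a transcript and less of it per cell cannot be told apart.

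**Figure D1:**
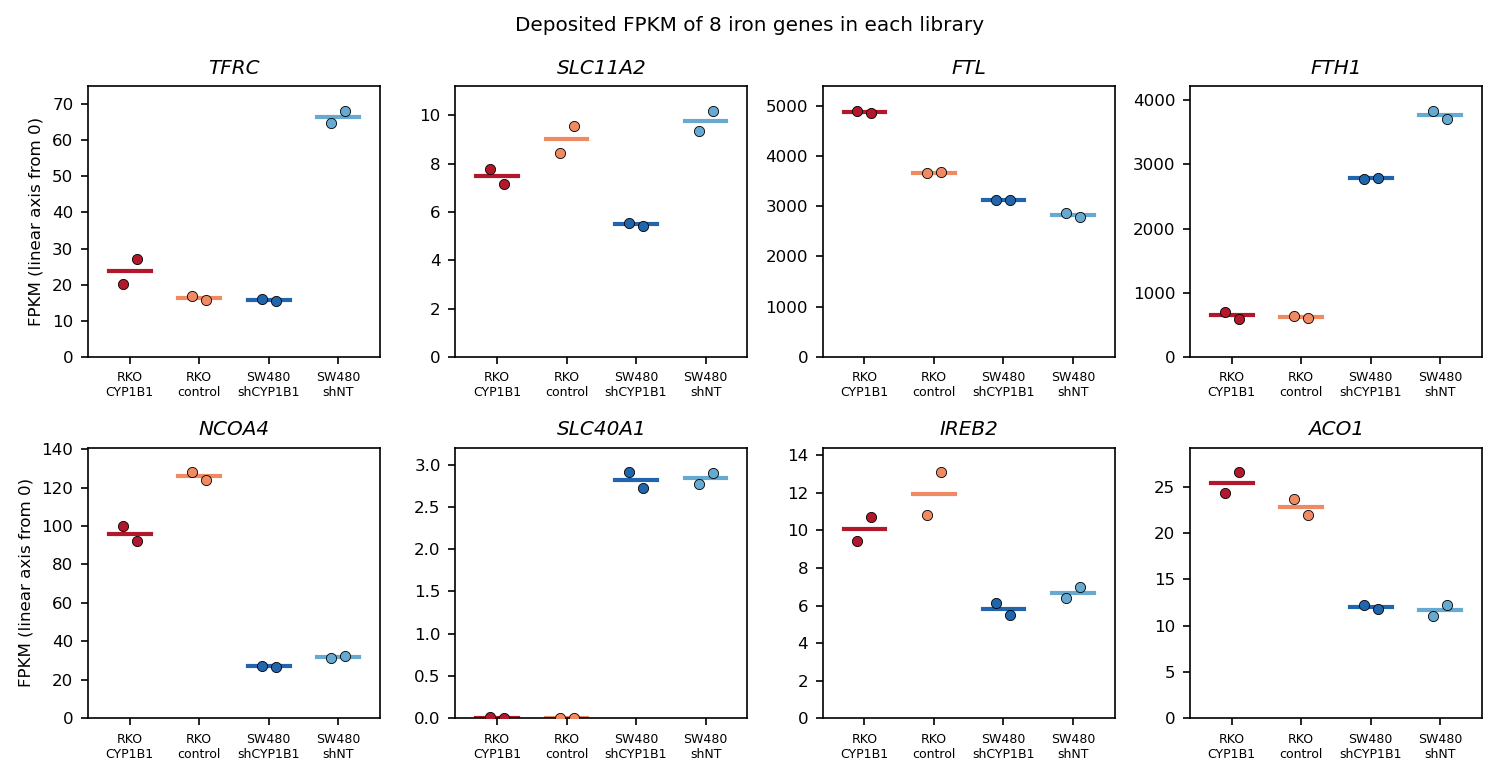
Deposited FPKM of the 8 genes (linear axes from 0) in the 8 libraries, with 1 point per library and a line at each group's mean. TFRC stands at 64.7 and 68.2 FPKM in the SW480 shNT libraries and below 30 FPKM in the other 6, and FTH1 is the gene most unequal between the lines among those expressed in both.

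TFRC encodes the transferrin receptor (chromosome 3, 196027183 to 196082189). In SW480 it had 16.1 and 15.5 FPKM (fragments per kilobase of transcript, scaled to library size) in the shCYP1B1 libraries, against 64.7 and 68.2 FPKM in the shNT libraries. The shCYP1B1 libraries were both low, close to each other and far outside the range of shNT. On the log2 scale TFRC differed by -2.03 (SE 0.12), with an adjusted p of 3.44e-07 by edgeR's quasi-likelihood method; here and below, p-values are Benjamini-Hochberg adjusted across all genes. By p-value, TFRC ranked 67 of the 14157 genes of this comparison. In RKO it had 20.3 and 27.1 FPKM in the overexpression libraries, against 16.9 and 15.7 FPKM in the controls, a log2 change of 0.55 (SE 0.11, adjusted p = 0.00439). Both overexpression libraries lay above both controls, but they differed from each other, at 0.33 and 0.75 above the control mean on the log2 scale. The rise did not pass without control replicate 2 (0.49, adjusted p = 0.0645), and it was 0.33 without overexpression replicate 2 and 0.75 without overexpression replicate 1. The CYP1B1-high minus CYP1B1-low effect was 1.47 smaller in RKO than in SW480 on the log2 scale (difference -1.47, SE 0.16, adjusted p = 3.77e-05).

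SLC11A2 encodes DMT1, the transporter that carries ferrous iron out of endosomes and, in the gut, across the apical membrane (chromosome 12, 50979401 to 51028566). In SW480 it had 5.55 and 5.42 FPKM with shCYP1B1, against 9.34 and 10.2 FPKM with shNT. These groups did not overlap, and the log2 change was -0.79 (SE 0.09, adjusted p = 2.56e-05). In RKO it had 7.79 and 7.16 FPKM with overexpression, against 8.46 and 9.58 FPKM in the controls. The log2 fold change of -0.25 (SE 0.09, adjusted p = 0.0509) narrowly missed the threshold. It passed with scaling by library size only (adjusted p = 0.0445) and with a filter of 1 CPM in 4 libraries (0.0479). It also passed without overexpression replicate 1 (-0.31), a fit that lacks the spread of that pair. The CYP1B1-high minus CYP1B1-low effect was -0.25 in RKO and 0.79 in SW480 (difference -1.04, SE 0.12, adjusted p = 6.62e-05).

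FTL, the ferritin light chain that aids mineral nucleation in the shell (chromosome 19, 48965301 to 48966878), was among the most abundant transcripts of both lines. It had 4900 and 4850 FPKM in the RKO overexpression libraries, against 3650 and 3670 FPKM in the controls. The groups were tight and apart, with a shift on the log2 scale of 0.43 (SE 0.05, adjusted p = 2.46e-04), and FTL ranked 2 and 1 among all genes by FPKM in the overexpression libraries and 5 in both controls. In SW480 it had 3120 and 3130 FPKM with shCYP1B1, against 2860 and 2790 FPKM with shNT, a log2 difference of 0.19 (SE 0.05, adjusted p = 0.00980). That small rise did not pass without shNT replicate 2 (adjusted p = 0.0777) or without shCYP1B1 replicate 2 (0.0550). FTL rose with the manipulation in each line, so its CYP1B1-high minus CYP1B1-low effects had opposite signs (difference 0.62, SE 0.07, adjusted p = 6.05e-05).

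FTH1 encodes the ferritin heavy chain, the ferroxidase that oxidises iron for storage (chromosome 11, 61959718 to 61967660). In SW480 it had 2780 and 2790 FPKM with shCYP1B1, against 3840 and 3710 FPKM with shNT. Both shCYP1B1 libraries were lower, with a log2 change of -0.39 (SE 0.08, adjusted p = 0.00121), and FTH1 ranked 7 among all genes by FPKM in both shCYP1B1 libraries and 1 in both shNT libraries. In RKO it had 700 and 590 FPKM with overexpression, against 630 and 602 FPKM in the controls. By FPKM, overexpression replicate 1 was the highest and replicate 2 the lowest of the 4, and the log2 fold change of 0.08 (SE 0.08, adjusted p = 0.467) did not pass. It was 0.20 without overexpression replicate 2, where it passed, and -0.04 without overexpression replicate 1. Neither of these fits holds the spread between the overexpression libraries. The difference between the lines was -0.31 (SE 0.11, adjusted p = 0.0353), and it did not pass without control replicate 1 or without any single SW480 library (adjusted p from 0.0671 to 0.127).

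NCOA4 encodes the receptor that carries ferritin into autophagosomes, the route called ferritinophagy (chromosome 10, 46005088 to 46030714). In RKO it had 100 and 92 FPKM with overexpression, against 128 and 124 FPKM in the controls. The overexpression libraries were both below both controls, with a shift on the log2 scale of -0.37 (SE 0.07, adjusted p = 0.00213). In SW480 it had 27.3 and 26.6 FPKM with shCYP1B1, against 31.6 and 32.6 FPKM with shNT, a log2 difference of -0.21 (SE 0.07, adjusted p = 0.0259). This fall did not pass when any single SW480 library was left out. Since NCOA4 fell under both manipulations, its effects relative to CYP1B1 had opposite signs (difference -0.58, SE 0.10, adjusted p = 6.17e-04).

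SLC40A1 encodes ferroportin, the only known exporter of ferrous iron in mammals (chromosome 2, 189560579 to 189583758). It was near absent in RKO, with 2 and 0 counts in the overexpression libraries and 1 and 0 counts in the controls, all under a floor of 3 counts per library, so no fold change is given there. It passed the filter on low counts through the SW480 libraries alone. In SW480 it had 2.91 and 2.72 FPKM with shCYP1B1, against 2.77 and 2.90 FPKM with shNT, from 338 to 362 counts per library. These groups overlapped, and the log2 change was 0.03 (SE 0.24, adjusted p = 0.926), a value that was slightly below 0 with scaling by library size only and with limma on FPKM.

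Neither gene of the RNA-binding regulators passed the test in either line. IREB2 encodes IRP2, which is degraded when iron is plentiful (chromosome 15, 78437431 to 78501456), and ACO1 encodes IRP1, which is a cytosolic aconitase when it carries an iron-sulfur cluster (chromosome 9, 32384603 to 32454769). IREB2 had 9.42 and 10.7 FPKM in RKO overexpression libraries, against 10.8 and 13.1 FPKM in the controls, with a log2 change of -0.24 (SE 0.11, adjusted p = 0.125). It had 6.15 and 5.49 FPKM with shCYP1B1, against 6.38 and 7 FPKM with shNT, with a shift on the log2 scale of -0.16 (SE 0.11, adjusted p = 0.253). IREB2 values did not overlap between the groups of either line, yet neither difference passed. ACO1 had 24.3 and 26.6 FPKM in RKO overexpression libraries, against 23.7 and 22 FPKM in the controls, with a log2 difference of 0.17 (SE 0.09, adjusted p = 0.168). It had 12.2 and 11.8 FPKM with shCYP1B1, against 11.1 and 12.2 FPKM with shNT, with a log2 change of 0.08 (SE 0.09, adjusted p = 0.479), and these groups overlapped. In RKO, IREB2 passed without overexpression replicate 2 (-0.33), and ACO1 passed without overexpression replicate 1 (0.24). Such fits lack the spread between the 2 overexpression libraries. The ratio of IREB2 to ACO1 in FPKM was 0.388 and 0.401 with overexpression, against 0.457 and 0.596 in RKO controls. It was 0.506 and 0.466 with shCYP1B1, against 0.574 and 0.572 with shNT.

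**Figure D2:**
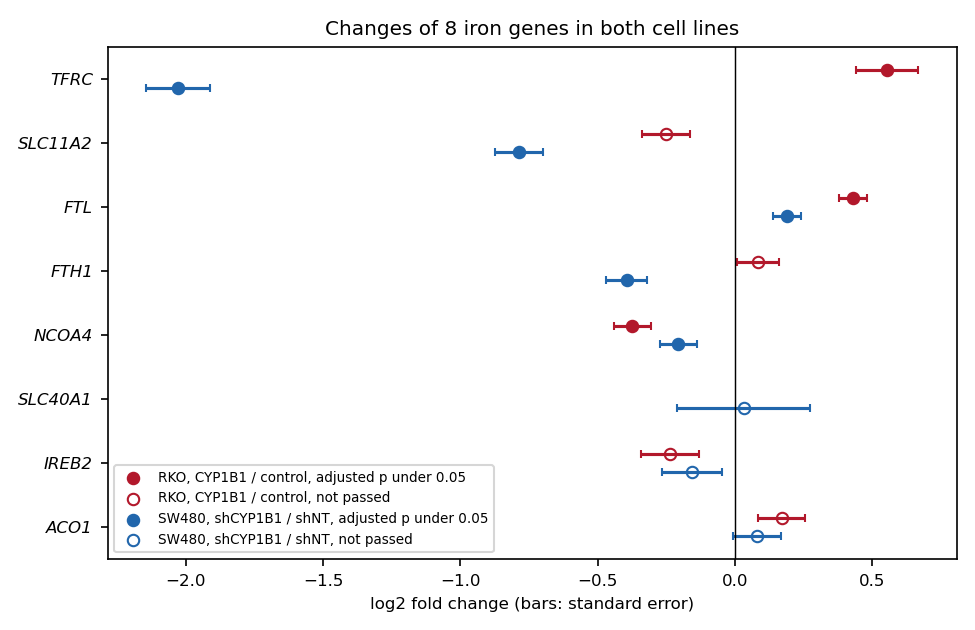
Log2 fold changes of the 8 genes with standard errors, CYP1B1 overexpression over control in RKO (red) and shCYP1B1 over shNT in SW480 (blue), filled where the adjusted p was under 0.05. TFRC is at 0.55 in RKO and -2.03 in SW480, FTL is above 0 and NCOA4 below 0 in both lines, and SLC40A1 has no RKO value because its counts there were at most 2.

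Of the 8 genes, 2 rose and 1 fell in RKO, where 27.6% of all genes tested were called (13.8% higher and 13.8% lower). In SW480, 1 rose and 4 fell, where 50.6% of all genes were called (25.3% in each direction). The median log2 fold change of the 8 genes was 0.13 in RKO, a value that includes the fitted change of SLC40A1 and is 0.08 over the other 7 genes, and -0.18 in SW480, beside 0.00 and -0.004 over all genes. Called genes are therefore common in both comparisons, and the counts of iron genes called are not set apart from them. In size, the fall of TFRC in SW480 exceeded the 90th percentile of the absolute log2 fold change over all genes (1.40), and no other of the 8 genes did so in either comparison. For the difference between the lines, 1 of the 8 genes was called higher and 4 lower, where 42.6% of all genes were called (21.0% higher and 21.6% lower).

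The balance of the ferritin chains is given as a ratio per library. The ratio of FTL to FTH1 in FPKM was 7.01 and 8.22 in RKO overexpression libraries, against 5.80 and 6.09 in controls. It was 1.12 in both shCYP1B1 libraries, against 0.743 and 0.754 with shNT. Both groups with altered CYP1B1 thus stood above their own controls in the share of light chain. Summed ferritin transcripts (FTL plus FTH1) were 5519 ± 114 FPKM with overexpression and 4278 ± 9.82 FPKM in RKO controls, and 5909 ± 12.5 FPKM with shCYP1B1 and 6600 ± 139 FPKM with shNT (SD, n = 2 each). The sum was thus higher with overexpression and lower with knockdown than in the matching controls. TFRC amounted to 2.90% and 4.60% of FTH1 in FPKM with overexpression, against 2.69% and 2.61% in RKO controls, and to 0.580% and 0.556% with shCYP1B1, against 1.68% and 1.84% with shNT. These ratios are given as values, and no test was run on them. GENCODE lists 16 FTL and 25 FTH1 pseudogenes, and how the authors assigned reads shared with them is not given in the sources used here, so absolute ferritin levels are uncertain. FTH1 also overlaps BEST1 on the opposite strand over 5798 bp, and BEST1 had at most 391 counts in any library, against at least 23444 for FTH1. The strand setting of the counting is not stated, so these counts cannot show how reads in the overlap were assigned.

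**Figure D3:**
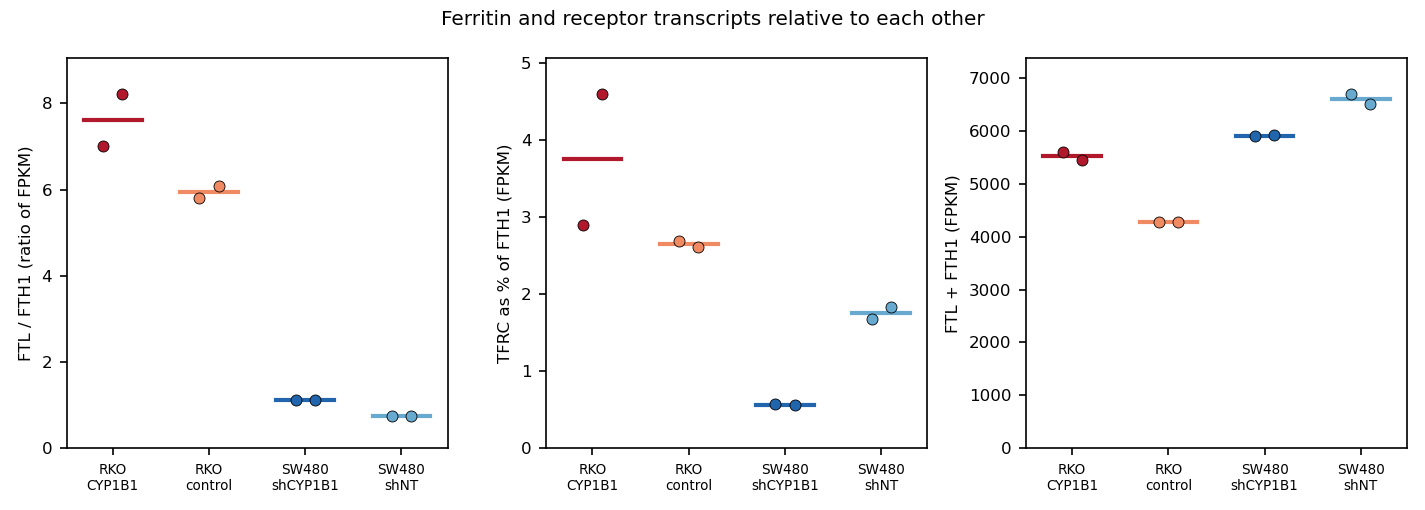
Ratio of FTL to FTH1, TFRC as a percent of FTH1, and the sum of FTL and FTH1 (all from deposited FPKM, linear axes from 0), with 1 point per library and a line at the group mean. The ferritin ratio lies between 5.80 and 8.22 in RKO and between 0.743 and 1.12 in SW480, and the TFRC share is lowest in the shCYP1B1 libraries.

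The lines also differed in iron genes. RKO control cells were set against SW480 shNT cells, 2 groups that differ in line and, by label, in construct, and that also serve as controls above. FTH1 had 616 ± 19.8 FPKM in RKO control and 3770 ± 95.3 FPKM in SW480 shNT libraries (SD, n = 2 each), a shift on the log2 scale of -2.66 (SE 0.08, adjusted p = 5.33e-11). TFRC had 16.3 ± 0.859 FPKM in RKO control and 66.5 ± 2.45 FPKM in SW480 shNT libraries (-2.07, SE 0.12, adjusted p = 1.43e-08). NCOA4 went the other way, with 126 ± 2.74 FPKM in RKO control and 32.1 ± 0.732 FPKM in SW480 shNT libraries (1.93, SE 0.07, adjusted p = 2.65e-10). RKO control was also higher in ACO1 (0.93, SE 0.09), IREB2 (0.80, SE 0.11) and FTL (0.33, SE 0.05), with adjusted p of 1.39e-06, 3.13e-05 and 1.03e-04. SLC11A2 did not pass (-0.16, SE 0.09, adjusted p = 0.118). It did pass without RKO overexpression replicate 1 or replicate 2, in fits that lack the spread of that pair. SLC40A1 had 1 count in the RKO control pair and 711 in the shNT pair, a ratio of 0.00151 after scaling by library totals (95% counting interval 3.83e-05 to 0.00846, which covers counting error only). Apart from SLC40A1, 4 of the genes were called higher and 2 lower in RKO control, where 76.8% of all genes were called (35.6% higher and 41.2% lower).

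Ranked by mean FPKM, the order of the groups varied between the genes. TFRC was highest with shNT (66.5) and next with RKO overexpression (23.7), and RKO control (16.3) and shCYP1B1 (15.8) overlapped. FTL was ordered RKO overexpression (4870), RKO control (3660), shCYP1B1 (3120) and shNT (2830), with no overlap between neighbours. FTH1 was highest with shNT (3770) and shCYP1B1 (2790), and the RKO groups (645 with overexpression, 616 in control) overlapped. NCOA4 and IREB2 shared an order, highest in RKO control (126 and 12), then RKO overexpression (96 and 10), shNT (32.1 and 6.69) and shCYP1B1 (27 and 5.82), with no overlap between neighbours. SLC11A2 was lowest with shCYP1B1 (5.48) and highest with shNT (9.75), which overlapped RKO control (9.02); RKO overexpression lay between (7.47). ACO1 was higher in RKO (25.4 with overexpression, 22.9 in control) than in SW480, where shCYP1B1 (12) and shNT (11.7) overlapped.

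For 7 of the genes, the genes closest in pattern were taken by Pearson r of log2 CPM centred within each line, over 8 libraries that form 4 pairs, among 11087 genes of at least 5 CPM on average. These values of r are a description, since the libraries of a line share a group contrast. TFRC was closest to SEMA3F (r = 0.999) and SKA2 (0.998). SEMA3F, a semaphorin gene, had log2 fold changes of 0.53 in RKO and -2.05 in SW480, beside 0.55 and -2.03 for TFRC. SKA2 had only 0.12 and -0.44, since r does not depend on the size of a change. FTL was closest to ARHGEF4 (0.999) and NELFB (0.994), FTH1 to TM4SF1 (0.998) and FPGS (0.994), and NCOA4 to RNF214 (0.998) and ZNF717 (0.995). ARHGEF4 had log2 fold changes of 1.32 in RKO and 0.43 in SW480, beside 0.43 and 0.19 for FTL. SLC11A2 was closest to U2SURP and C2CD5 (0.997 for both), and IREB2 to FAM91A1 (0.955) and FBXO30 (0.941). No r is given for SLC40A1, whose RKO counts were all under the floor. ACO1 was closest to ABCB6 (0.989), a porphyrin transporter gene that is itself on the haem list below, and to KCTD1 (0.984).

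A further 80 genes of iron, haem and iron-sulfur metabolism were listed, of which 77 were in the table and 72 were tested. In RKO, 14 rose and 7 fell (29.2% called), and in SW480, 20 rose and 23 fell (59.7% called), beside 27.6% and 50.6% of all genes. Their median log2 fold change was 0.06 in RKO and -0.05 in SW480. Without single libraries the number that fell in RKO was 4 (without control replicate 2) to 12 (without overexpression replicate 1), and in SW480 it was 15 without shNT replicate 1.

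Iron uptake and reduction genes all passed the test in SW480: of 8 tested beside TFRC and SLC11A2, 6 fell and 2 rose, with a median of -0.77, where 50.6% of all genes were called. STEAP1 and STEAP2, metalloreductases of the STEAP family, stood at 27.8 ± 0.350 and 15.9 ± 0.741 CPM with shCYP1B1, against 63.6 ± 4.63 and 33.7 ± 3.38 CPM with shNT (SD, n = 2). Their log2 fold changes were -1.19 (SE 0.11) and -1.08 (SE 0.11). LCN2, the siderophore-binding lipocalin, fell to 14.6 ± 1.51 CPM with shCYP1B1, against 64.7 ± 3.38 CPM with shNT (-2.14, SE 0.15). TFR2, the second transferrin receptor, fell by 1.32 (SE 0.14), SLC39A14, a metal importer of the ZIP family, by 0.41 and STEAP3, the endosomal ferrireductase, by 0.47. The related importer SLC39A8 and the duodenal ferrireductase gene CYBRD1 rose by 0.36 and 0.34. In RKO, 1 of the 8 rose and 2 fell (37.5% called, beside 27.6% of all genes), with a median of -0.11. STEAP3 rose by 0.72 (SE 0.15) and SLC39A14 fell by 0.47 (SE 0.07). LCN2 fell, with 7 and 2 counts with overexpression and 33 and 29 in controls, too few for a fold to be given. The rise of STEAP3 did not pass without RKO control replicate 2 (adjusted p = 0.0606).

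Among 4 tested genes of iron chaperones and ferritin turnover, PCBP1, an iron chaperone that loads ferritin, rose by 0.42 (SE 0.07) in RKO and stood at -0.11 in SW480 (adjusted p = 0.212). TAX1BP1, an autophagy receptor that works with NCOA4, fell by 0.43 in RKO, and without control replicate 2 its adjusted p was 0.0550. In SW480, HERC2, a ubiquitin ligase gene with near-identical partial copies, fell by 0.82 (SE 0.15), and PCBP2 by 0.19 (SE 0.06), which did not pass without any single SW480 library (adjusted p from 0.0778 to 0.134). Of 4 genes for turnover of the iron regulatory proteins, FBXL5, the iron-sensing subunit of the ligase that degrades IRP2, rose by 0.63 (SE 0.09) in SW480. CUL1, a scaffold of that ligase, stood at -0.18 there with an adjusted p of 0.0491, and lost its call under 10 alternatives. In RKO, SKP1, another subunit, rose by 0.50 (SE 0.06), and CIAO2A rose by 0.47 (SE 0.13) but not without control replicate 1 (0.32, adjusted p = 0.147). FBXL5 stood at 0.08 in RKO (adjusted p = 0.555).

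Of 7 export and hormone-axis genes in the table besides SLC40A1, 3 were tested. The share called was 100% in SW480 and 0% in RKO, beside 50.6% and 27.6% of all genes. In SW480, BMP6, the ligand that induces hepcidin in liver, stood at 63.7 ± 0.351 CPM with shCYP1B1 and 14 ± 0.190 CPM with shNT (2.19, SE 0.17). HFE, the haemochromatosis gene, fell by 1.11 (SE 0.18). PROM2, a membrane protein gene tied to ferritin release, passed with 25 and 6 counts with shCYP1B1 and 0 and 2 counts with shNT, and did not pass with limma on FPKM or without shNT replicate 1 or shCYP1B1 replicate 1. None of the 3 passed in RKO by edgeR, where BMP6 had only 2 and 4 counts with overexpression and 4 and 0 in controls, so no fold is given for it there.

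Of 11 haem synthesis genes, 5 fell and 1 rose in SW480, with a median of -0.14, and 2 rose and 0 fell in RKO. The share called was 54.5% in SW480 and 18.2% in RKO, beside 50.6% and 27.6% of all genes. FECH, which inserts iron into protoporphyrin, fell by 1.37 (SE 0.13) and UROS by 1.07 (SE 0.13) in SW480, while ALAS1, the rate-limiting first enzyme, rose by 0.82 (SE 0.08). In RKO, CPOX and UROD, enzymes of the later steps, rose by 0.55 (SE 0.10) and 0.38 (SE 0.07). Of 9 genes of haem breakdown and transport, 4 rose and 1 fell in SW480, and 3 rose and 1 fell in RKO, a share called of 55.6% and 44.4%. HMOX1, the inducible haem oxygenase that frees iron from haem, rose by 0.69 (SE 0.12) in SW480 and by 0.50 (SE 0.11) in RKO. BLVRA, which reduces the biliverdin so formed, rose in both lines, by 0.83 (SE 0.08) in SW480 and 0.51 (SE 0.08) in RKO. BLVRB rose by 1.12 (SE 0.11) in SW480, and PGRMC1, a haem-binding membrane protein gene, by 0.40 (SE 0.07) in RKO. The RKO rise of HMOX1 did not pass without control replicate 2 (adjusted p = 0.0720).

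Both mitochondrial iron importers rose in SW480: SLC25A37 stood at 91.3 ± 8.49 CPM with shCYP1B1 and 31.7 ± 0.965 CPM with shNT (1.53, SE 0.09), and SLC25A28 rose by 0.59 (SE 0.13). Neither passed in RKO, where their median was 0.09. Of 27 genes of iron-sulfur cluster assembly, 7 rose and 6 fell in SW480 and 5 rose and 2 fell in RKO, with medians of -0.01 and 0.04. The share called, 48.1% in SW480 and 25.9% in RKO, was near that of all genes (50.6% and 27.6%). The cysteine desulfurase gene NFS1 rose by 0.60 (SE 0.08) and ISCA1 fell by 0.60 (SE 0.09) in SW480. In RKO, HSPA9, the mitochondrial HSP70 gene, fell by 0.52 (SE 0.06), and FDXR and NUBP2 rose by 0.70 (SE 0.10) and 0.61 (SE 0.11). Of 4 other mRNAs reported to carry iron-responsive elements, EPAS1, which encodes HIF-2α, rose by 0.51 (SE 0.06) in SW480, and CDC42BPA, a kinase gene, fell by 0.51 (SE 0.09) in SW480 and by 0.77 (SE 0.09) in RKO.

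**Figure D4:**
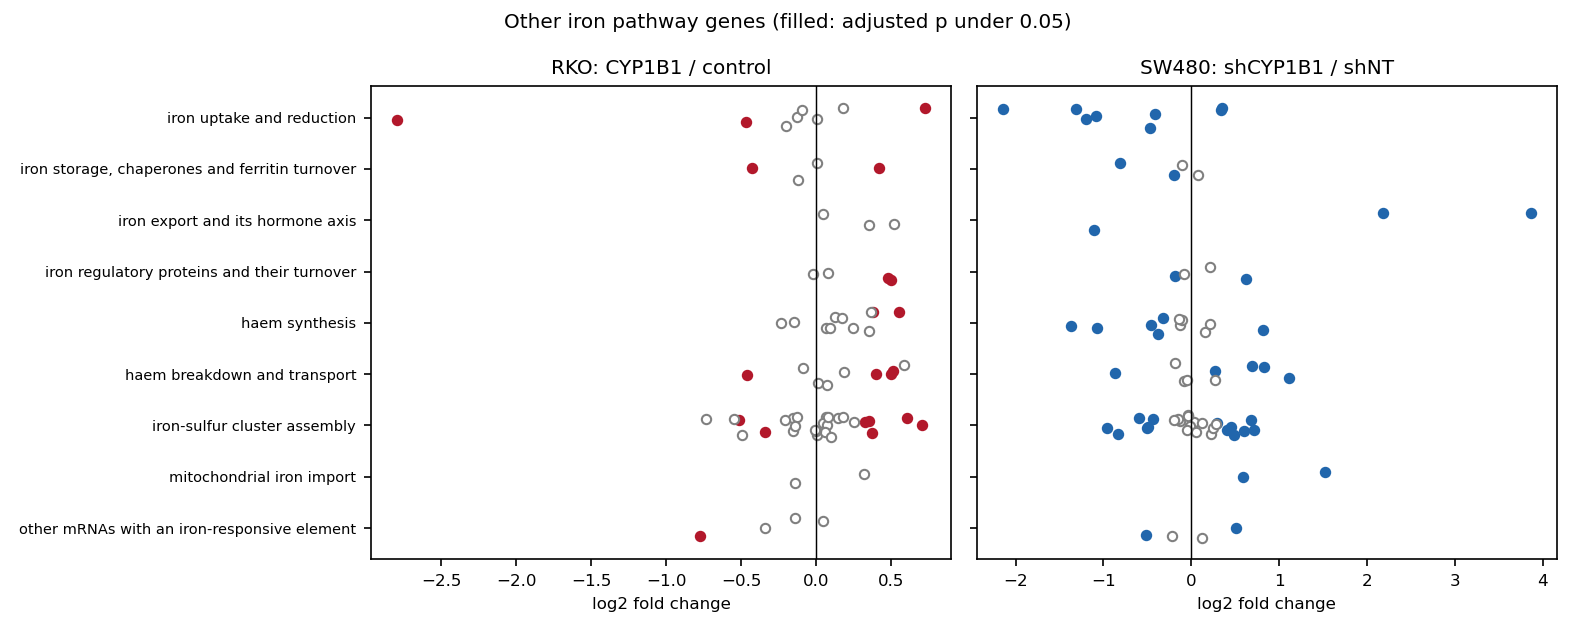
Log2 fold changes of the 72 tested iron pathway genes other than the 8 described first, by list (rows, spread vertically for legibility), in RKO (left) and SW480 (right), filled where the adjusted p was under 0.05. The median of the uptake and reduction list is -0.77 in SW480 and -0.11 in RKO.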

How the data were processed

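Raw counts of reads per gene, and FPKM beside them, were deposited by the authors. Libraries were made with a stranded mRNA kit, per the labels' protocols. Submitters' processing notes name the build GRCh38.p13, while aligner, counter, annotation and strand setting are not stated there. The deposited FPKM equal counts divided by a length per gene and the library total. Groups and replicate numbers came from the titles. Counts were tested in edgeR 4.0.16 (R 4.3.3): filterByExpr (minimum count 10, minimum total 15), TMM scaling and quasi-likelihood fits with 1 coefficient per group over all 8 libraries, which gives 4 residual degrees of freedom. The Benjamini-Hochberg adjustment covered 14157 genes, with a threshold of 0.05. SE is the absolute log2 fold change over the square root of F. Levels are deposited FPKM, since these allow genes to be compared per length; CPM are TMM-scaled unless stated. Alternatives included DESeq2 1.42.0 and limma 3.58.1 on log2 of FPKM plus 1 or 0.1. The edgeR fit was tested on simulated counts. The 8 genes and the lists were chosen with earlier results of these data known. Genes named from the lists are up to 3 per list and line with the smallest p among those called, less any not reported here, plus further uptake genes, and PCBP1 and FBXL5 where not called, chosen after their values were seen.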

Additional observations from a re-analysis of the deposited data

Results flagged for a closer look

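For 5 genes the CYP1B1-high minus CYP1B1-low effect differed between RKO and SW480 by an interaction test (edgeR, adjusted over all genes), and the log2 differences are RKO minus SW480. TFRC had effects of 0.55 in RKO and 2.03 in SW480 and a difference of -1.47 (adjusted p = 3.77e-05), so that it moved the same way in both lines and by more in SW480. SLC11A2 had effects of -0.25 in RKO and 0.79 in SW480 and a difference of -1.04 (adjusted p = 6.62e-05). FTL had effects of 0.43 and -0.19 and a difference of 0.62 (adjusted p = 6.05e-05), NCOA4 effects of -0.37 and 0.21 and a difference of -0.58 (adjusted p = 6.17e-04), and FTH1 effects of 0.08 and 0.39 and a difference of -0.31 (adjusted p = 0.0353). The RKO comparison is an overexpression (437 and 519 CPM of CYP1B1) and the SW480 comparison a knockdown (0.367 and 0.301 CPM, against 1.44 and 2.20 with shNT), so line, construct and size of the CYP1B1 change cannot be told apart. Groups of 2 libraries allow no test for single outlying libraries.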

How the results depend on the processing

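Under alternative settings, 448 values of the 8 genes kept their direction and side of the threshold, 14 newly passed, 12 no longer passed and 5 changed sign. With each line fitted alone, 1133 genes rose and 1161 fell in RKO, against 1959 and 1948 in the fit of all libraries. In SW480, 4593 rose and 4478 fell, against 3588 and 3579. TFRC, FTL and NCOA4 still passed in RKO by that edgeR fit of 1 line, with larger adjusted p (0.0409, 0.0124 and 0.0313). SLC11A2 in RKO stood at -0.27 with library size only and -0.25 with a filter of 1 CPM in 4 libraries. SLC40A1 in SW480 stood at -0.012 with library size only and with limma on log2(FPKM + 0.1), and at -0.009 with limma on log2(FPKM + 1). ACO1's difference between the lines kept its side of the threshold in 15 of 16 alternatives, and IREB2's in 11 of 16. Among others, IREB2's difference passed with library size only (-0.46) and with the replicate block (-0.39, adjusted p = 0.0410). The cause of these shifts was not tested. With 1 library left out, genes called in RKO ranged from 891 to 2702 (higher) and from 893 to 2927 (lower), the lowest without control replicate 2 and the highest without overexpression replicate 1. RKO values ranged from 0.33 to 0.75 for TFRC, -0.043 to 0.20 for FTH1, -0.33 to -0.17 for SLC11A2, -0.36 to -0.10 for IREB2 and 0.10 to 0.24 for ACO1. SW480 values ranged from 0.17 to 0.22 for FTL, -0.22 to -0.18 for NCOA4 and -0.008 to 0.086 for SLC40A1. SLC11A2 between the controls ranged from -0.24 to -0.08. Differences between the lines ranged from -0.44 to -0.20 for FTH1, -0.52 to -0.26 for IREB2 and 0.18 to 0.33 for ACO1. Same-numbered libraries showed no shared deviation (correlation -0.05 in RKO and -0.02 in SW480). These values cannot show whether the libraries were made in numbered pairs. The block gave 3653 called genes in RKO and 6891 in SW480, and changed no other call of the 8 genes. A group left with 1 library is assumed to vary like the others. Fits without an RKO overexpression library therefore lack the spread of the least alike pair. Depth limits SLC40A1 in RKO, where no change could be detected from 3 counts in all.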
